A study of Mus musculus with 9 samples.

Results

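The 10 genes described here can act in cytokine signalling of B-lineage cells: the receptor chains Il4ra, Il21r, Il2ra, Il10ra, Il6ra, Ifngr1, Ifngr2, Ifnar1 and Ifnar2, and the feedback inhibitor Socs3. They were taken by gene name from the array design, which gave 16 probes of 41174 on the array and 10 genes of 20806 named ones. Of the 10 genes, 9 passed the filter on dim probes and were tested among 11916 genes, and Il6ra did not pass. Expression was measured on 1-colour Agilent arrays in mouse pro-B cells transformed with the Abelson leukaemia virus (A-MuLV), from a C57Bl/6 background, with the genotype Ebf1fl/fl;RERTCre, in which 4-hydroxytamoxifen activates a Cre recombinase that deletes Ebf1.

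EBF1 is a transcription factor needed to specify and maintain the B lineage. EBF1ΔC cells received the retrovirus pmys-EBF1ΔC-IRES-GFP, which by its name encodes EBF1 without the C-terminal domain, and EBF1wt cells received pmys-EBF1wt-IRES-GFP. In both, 2 µM tamoxifen followed the transduction by 24 h, GFP+ cells were sorted on day 5 of treatment, and RNA was taken once the sorted cells had grown for over 2 weeks. Mock cells carry the same floxed allele and Cre, were mock-transduced, received 2 µM tamoxifen as well, and were harvested 4 days later, before cell death was seen. Each group had 3 arrays, which limits the precision. The labels do not say whether these were separate cultures, so p-values measure the spread between these samples, which may be technical. The series asks what the C-terminal domain of EBF1 does when the altered protein replaces the endogenous one.

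The Mock arrays lay on slides of their own and were scanned on another day, so group, slide, scan day, time after tamoxifen, transduction and sorting cannot be told apart in any comparison with Mock. In bulk RNA, fewer cells of a type and less RNA per cell cannot be told apart. Across the 9 arrays, the 75th percentile of signal was 384 to 507.7 intensity units. On the second principal component EBF1wt replicate 2 scored 45.7, apart from 12.8 and 15.1 in its group, and its part is given below where it matters. The 8 pro-B markers, among them Pax5 and Vpreb1, were well above background on all 9 arrays. The probe of Ebf1 that stood for the gene was 2.35 log2 units higher in EBF1ΔC and 1.61 higher in EBF1wt than in Mock, and 0.74 higher in EBF1ΔC than in EBF1wt, which is short of 2-fold. A second Ebf1 probe, above background on 3 Mock arrays and on 0 of the others, was at least 7.48-fold lower in EBF1ΔC and at least 6.56-fold lower in EBF1wt than in Mock. Whether either Ebf1 probe lies in the deleted or in the transduced stretch is not given in the files.

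As background, these receptors signal through Janus kinases (JAKs) bound to their cytoplasmic tails, which phosphorylate STAT factors that then enter the nucleus. The receptors for IL-4 and IL-21 and the high-affinity IL-2 receptor use the common gamma chain, the product of Il2rg. The IL-10 receptor and the receptors for type I and type II interferons each pair a ligand-binding chain with a second signalling chain, and the IL-6 receptor signals through gp130, the product of Il6st. IL-4 acts mainly through STAT6, and IL-10, IL-6 and IL-21 act largely through STAT3, while SOCS proteins are induced by these signals and dampen them. In mouse bone marrow, CD25, the product of Il2ra, marks small pre-B cells.

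Among the 10 genes, the 2 neighbouring receptor genes Il4ra and Il21r and the receptor gene Il10ra were higher in EBF1ΔC than in EBF1wt, and the interferon receptor genes and Socs3 were not called. With normexp and quantile normalization, and in the authors' values, Il10ra alone of these was called between EBF1ΔC and EBF1wt. Il4ra, Il21r, Il2ra and Il10ra were all lower in EBF1wt than in Mock. A call needed both a change of 2-fold or more and an adjusted p under 0.05 (limma, Benjamini-Hochberg over all genes tested). In EBF1ΔC against EBF1wt, 4 of the 9 tested genes were called, 3 higher and 1 lower, where 2.74% of all tested genes were called (1.41% higher and 1.33% lower), and the lower one, Il2ra, was close to background in both groups. In EBF1ΔC against Mock, 4 were lower and 0 higher (background: 17.7% called, 11.4% lower and 6.27% higher). In EBF1wt against Mock, 4 were lower and 0 higher (background: 19.1% called, 12.5% lower and 6.61% higher). The median log2 difference of the 9 genes was 0.02, -0.72 and -0.99 in these 3 comparisons, beside -0.01, 0.10 and 0.12 over all genes. The 2 comparisons with Mock share the Mock arrays.

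**Figure D1:**
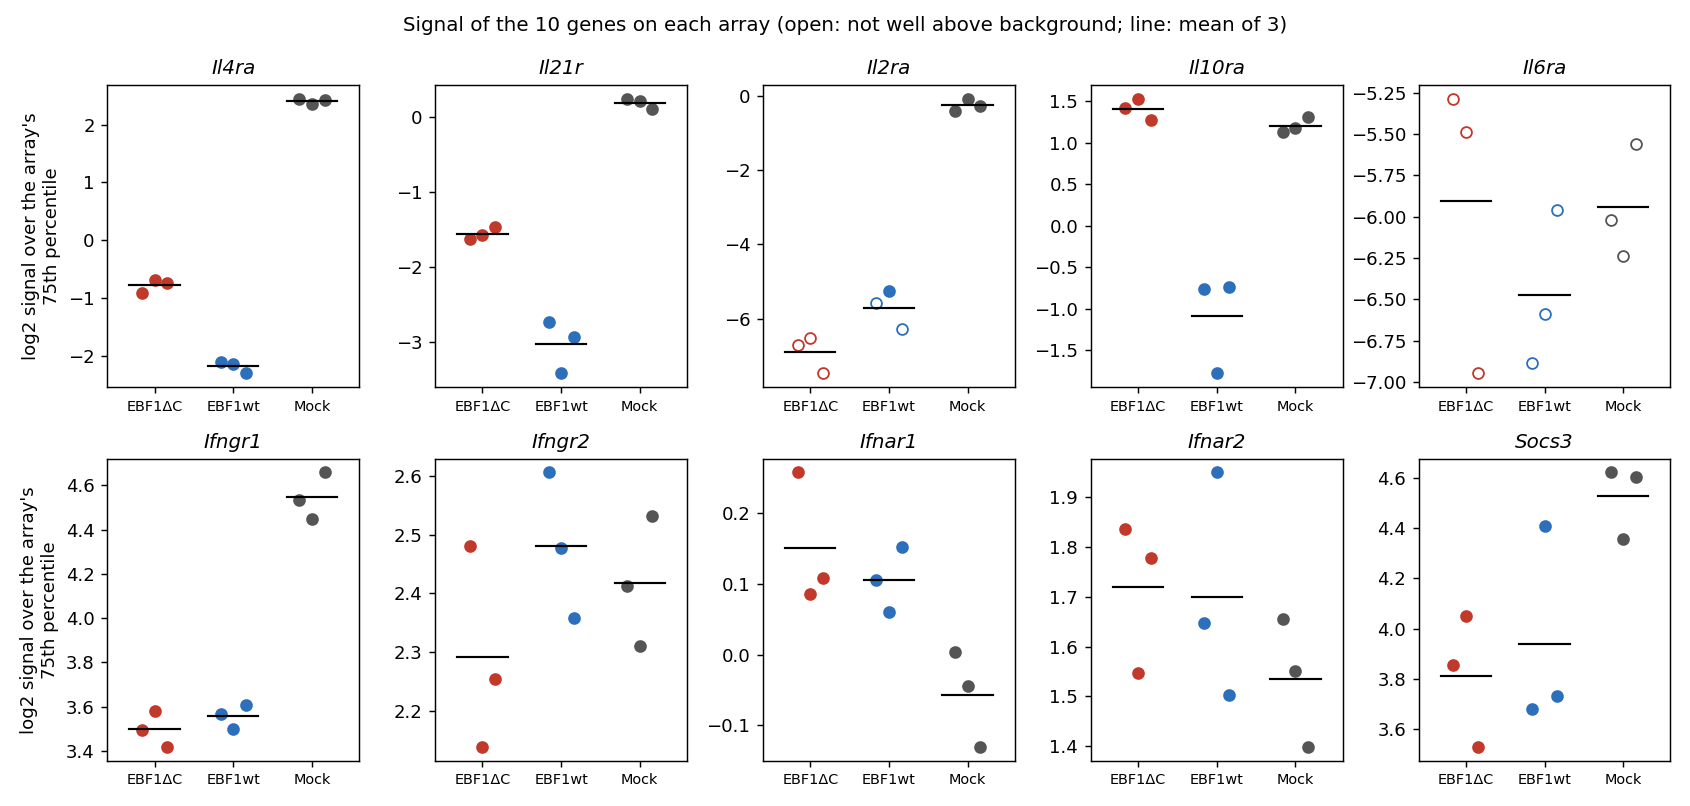
Log2 signal over the 75th percentile of the array for the 10 genes, with 1 point per array, EBF1ΔC left, EBF1wt in the middle and Mock right. Open points are not well above background, and the line is the mean of 3 arrays. The groups do not overlap for Il4ra and Il21r, Il10ra is low on the EBF1wt arrays, and every Il6ra point is open.

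Because Il4ra and Il21r lie side by side and differed between all 3 groups, the windows at their start sites are shown first, with those of Il2ra, which was above background on 3 of 3 Mock arrays and on 0 of 3 EBF1ΔC arrays, and Socs3, which holds a STAT-type match. The windows run from 250 bases before to 50 bases after the annotated start, 5′ to 3′ on the strand of the gene, from RefSeq on build GRCm38.p6. Of the 10 genes, 9 had an entry. Il10ra had none, so the motif counts below do not cover it. Il4ra lies at chr7:125552021-125552320 (+), Il21r at chr7:125603179-125603478 (+), Il2ra at chr2:11642542-11642841 (+) and Socs3 at chr11:117969317-117969616 (-). Capitals mark matches to the motifs below.
Il4ra: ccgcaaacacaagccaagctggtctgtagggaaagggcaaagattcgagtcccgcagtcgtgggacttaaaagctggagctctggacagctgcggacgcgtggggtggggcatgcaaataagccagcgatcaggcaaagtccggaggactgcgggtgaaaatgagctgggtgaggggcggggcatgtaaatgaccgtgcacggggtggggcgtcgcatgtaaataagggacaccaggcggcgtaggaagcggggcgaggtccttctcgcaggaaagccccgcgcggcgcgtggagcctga
Il21r: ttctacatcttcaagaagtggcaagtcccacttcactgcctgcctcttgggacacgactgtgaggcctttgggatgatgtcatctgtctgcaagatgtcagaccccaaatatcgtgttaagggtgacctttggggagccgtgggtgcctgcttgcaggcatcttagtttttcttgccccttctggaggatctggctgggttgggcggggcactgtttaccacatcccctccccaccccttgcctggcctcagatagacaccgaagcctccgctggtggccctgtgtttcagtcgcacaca
Il2ra: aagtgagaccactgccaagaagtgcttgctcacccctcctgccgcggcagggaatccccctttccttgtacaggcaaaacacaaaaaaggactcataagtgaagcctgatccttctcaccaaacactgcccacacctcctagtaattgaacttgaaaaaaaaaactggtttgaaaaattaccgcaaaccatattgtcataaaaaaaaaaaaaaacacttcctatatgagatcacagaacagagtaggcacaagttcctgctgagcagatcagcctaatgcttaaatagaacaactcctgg
Socs3: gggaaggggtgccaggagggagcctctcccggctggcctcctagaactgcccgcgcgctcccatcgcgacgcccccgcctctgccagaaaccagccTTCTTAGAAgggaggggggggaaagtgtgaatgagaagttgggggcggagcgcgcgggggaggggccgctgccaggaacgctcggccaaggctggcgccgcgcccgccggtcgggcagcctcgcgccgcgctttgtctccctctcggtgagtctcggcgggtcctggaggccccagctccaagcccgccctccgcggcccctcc
Letters of an EBF site were searched as CCCNNGGGA, a STAT (GAS) site as TTCNNNGAA and an interferon-regulatory-factor site as GAAANNGAA, on both strands, with no overlap found between them. Over all 32851 windows, 6.56% held the EBF letters, 8.30% the STAT letters and 8.56% the interferon-regulatory-factor letters. In the 9 windows, 1 held the EBF letters, that of Il6ra, 204 bases before the start, 0 held the interferon-regulatory-factor letters and 3 held the STAT letters. The STAT matches began 154 bases before the start in Socs3, 214 before it in Ifnar2 and 5 before it in Ifnar1. A match is a description of letters and not of binding. The window of Socs3 had a GC content of 73.3%, that of Il4ra 62.0%, that of Il21r 56.0% and that of Il2ra 42.7%, beside a median of 52.7% over all windows.

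Il4ra encodes the IL-4-binding alpha chain, which is also part of the IL-13 receptor. Its log2 signal relative to the 75th percentile was -0.91, -0.69 and -0.73 on the EBF1ΔC arrays, -2.10, -2.13 and -2.30 on the EBF1wt arrays and 2.45, 2.36 and 2.42 on the Mock arrays. In intensity units this was 247.5 to 302.5 in EBF1ΔC, 103.4 to 114.7 in EBF1wt and 2061 to 2615 in Mock. The 3 groups did not overlap, and EBF1ΔC lay between EBF1wt and Mock. Il4ra was 2.64-fold higher in EBF1ΔC than in EBF1wt (log2 difference 1.40, SE 0.09, adjusted p = 9.33e-05). It was 9.09-fold lower in EBF1ΔC than in Mock (-3.18, adjusted p = 7.33e-08) and 24.0-fold lower in EBF1wt than in Mock (-4.59, adjusted p = 7.89e-09). Slide 4 and slide 5 each held 1 EBF1ΔC and 1 EBF1wt array, and within them the EBF1ΔC array was higher by 1.40 and 1.39. The gene's probe maps to chr7:132721137-132721196 (+) on mm9, the build of the array files.

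Il21r encodes the ligand-binding chain for IL-21, a cytokine of helper T cells. Its single probe, at chr7:132776151-132776210 (+) on mm9, is shown because the whole result for Il21r rests on it.
Il21r probe: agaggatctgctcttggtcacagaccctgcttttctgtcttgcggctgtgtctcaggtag
It read -1.63, -1.58 and -1.47 log2 units on the EBF1ΔC arrays, -2.73, -3.42 and -2.93 on the EBF1wt arrays and 0.24, 0.22 and 0.11 on the Mock arrays. As for Il4ra, the groups did not overlap and EBF1ΔC lay between the other groups. Il21r was 2.76-fold higher in EBF1ΔC than in EBF1wt (1.47, SE 0.16, adjusted p = 0.00129). It was 3.36-fold lower in EBF1ΔC than in Mock (-1.75, adjusted p = 3.67e-05) and 9.29-fold lower in EBF1wt than in Mock (-3.22, adjusted p = 1.25e-06). EBF1wt replicate 2 was the lowest array of its group, and without it the EBF1ΔC difference from EBF1wt was 1.27 (adjusted p = 3.87e-04). Within slides 4 and 5 the EBF1ΔC array was higher by 1.95 and 1.30. With normexp background correction and quantile normalization, the differences of Il4ra and Il21r between EBF1ΔC and EBF1wt fell short of 2-fold, at 0.88 and 0.78, as they did in the authors' own values, at 0.85 and 0.73. The differences from Mock remained called but were smaller: in EBF1wt, Il4ra differed by -3.72 with normexp and -3.76 in the authors' values, and Il21r by -2.09 and -2.06. In EBF1ΔC, Il4ra differed from Mock by -2.84 and -2.90, and Il21r by -1.31 and -1.33.

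In RefSeq gene order, Il4ra and Il21r are adjacent on chromosome 7, between Nsmce1, a subunit of the SMC5/6 complex, and Gtf3c1, a subunit of the RNA polymerase III factor TFIIIC. Nsmce1 differed by 0.30 log2 units between EBF1ΔC and EBF1wt, and by 0.09 and -0.21 from Mock in EBF1ΔC and EBF1wt. Gtf3c1 differed by -0.03 between EBF1ΔC and EBF1wt, and by -0.27 and -0.24 from Mock in EBF1ΔC and EBF1wt. Neither flanking gene was called in any comparison. On chromosome 16 the order is Ifnar2, Il10rb, Ifnar1, Ifngr2 and Tmem50b, and none of these 5 genes was called.

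**Figure D2:**
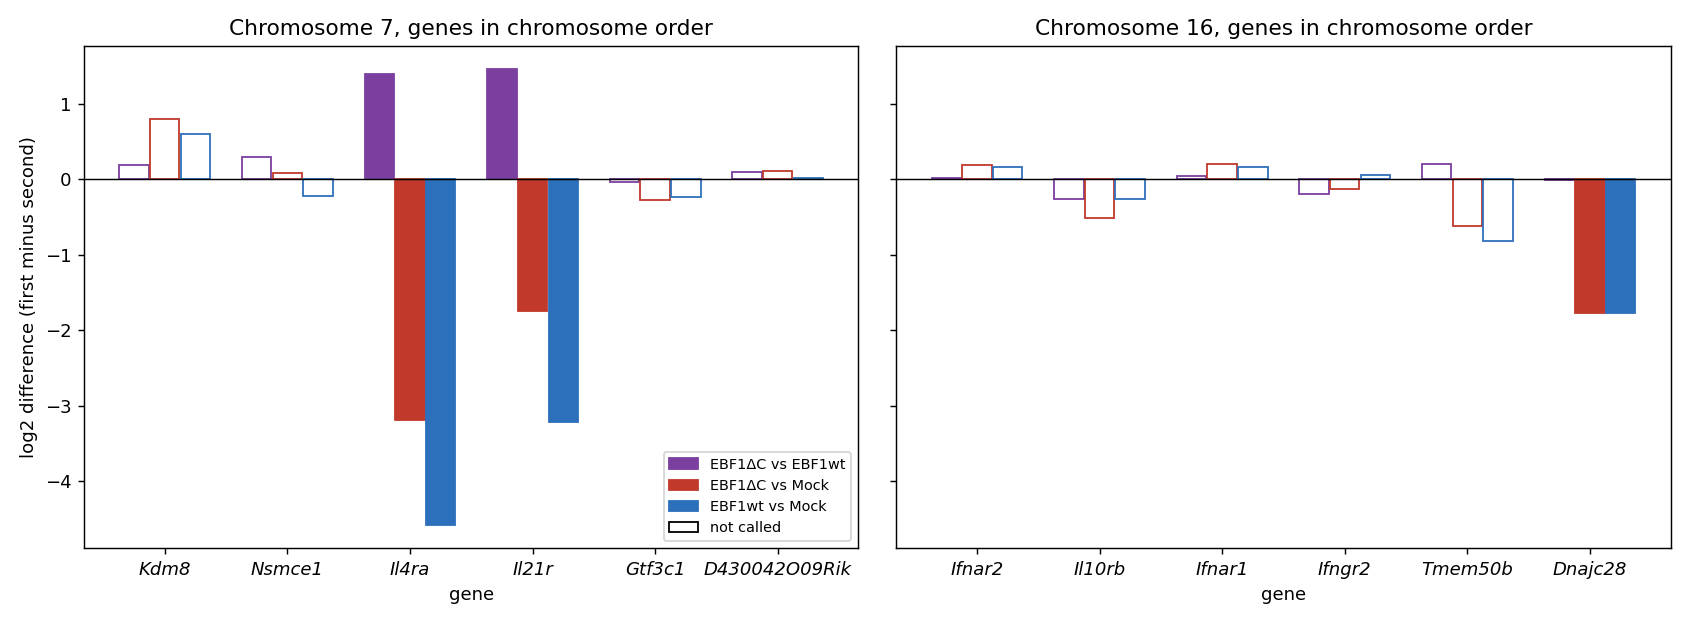
Log2 differences of genes in chromosome order around Il4ra and Il21r on chromosome 7 (left) and around the interferon receptor genes on chromosome 16 (right), in EBF1ΔC against EBF1wt, EBF1ΔC against Mock and EBF1wt against Mock. Filled bars were called. On chromosome 7 only Il4ra and Il21r of the genes plotted were called, and on chromosome 16 only Dnajc28, in both comparisons with Mock.

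The 10123 genes compared were well above background on every array and had a usual gene symbol rather than a clone or predicted-gene name. Those with the most similar pattern over the 9 arrays were found by the root mean square distance between centred log2 values. For Il4ra these were Cd74, the invariant chain of MHC class II (0.25 log2 units), Gpr146, an orphan receptor (0.26), and H2-DMa, an MHC class II peptide-loading chain (0.28). For Il21r they were the adaptor gene Dok2 (0.18), Cd38, an ectoenzyme (0.20), and Itgal, the alpha chain of LFA-1 (0.27). The 9 arrays share 3 group means, so the distance mainly describes how alike those means are.

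Il10ra encodes the ligand-binding chain of the IL-10 receptor. It read 1.41, 1.53 and 1.28 log2 units on the EBF1ΔC arrays, -0.77, -1.78 and -0.73 on the EBF1wt arrays and 1.12, 1.18 and 1.31 on the Mock arrays. The EBF1wt arrays lay below all others, and the EBF1ΔC and Mock arrays overlapped. Il10ra was 5.66-fold higher in EBF1ΔC than in EBF1wt (2.50, SE 0.25, adjusted p = 9.84e-04). It was 4.92-fold lower in EBF1wt than in Mock (-2.30, adjusted p = 9.23e-05). Between EBF1ΔC and Mock the difference was 0.20 (95% confidence interval -0.37 to 0.78, adjusted p = 0.501). EBF1wt replicate 2 was the lowest array, and without it the EBF1ΔC difference from EBF1wt was 2.16 (adjusted p = 4.16e-05) and the EBF1wt difference from Mock was -1.96 (adjusted p = 3.76e-06).

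Il10ra is also used by myeloid cells. The summed level of the 8 myeloid markers on the array, in multiples of the 75th percentile, ranged from 7.95 to 15.5 in EBF1ΔC, from 0.566 to 2.79 in EBF1wt and from 2.39 to 2.83 in Mock. Lyz2 was above background on all 9 arrays, and Adgre1, Elane and Mpo on none. In EBF1ΔC, Lyz2 alone of the 8 was above background on all 3 arrays, and 5 were on none. In EBF1wt 6 were on none, and in Mock 3. Most of the sum in EBF1ΔC was Lyz2, with a mean log2 signal of 3.59 there. Of the 2 tested markers, Lyz2 was higher in EBF1ΔC than in EBF1wt (3.10) and than in Mock (5.16). Tyrobp went the other way: it differed by -0.997 between EBF1ΔC and EBF1wt (adjusted p = 0.0255), just short of 2-fold and not called. It was lower in EBF1ΔC than in Mock (-5.92). The part of the myeloid markers in the Il10ra result was not tested. Within slides 4 and 5 the EBF1ΔC array was higher in Il10ra by 3.06 and 2.15. The genes most like Il10ra were Clec2i, a C-type lectin (0.32 log2 units), Csf1, which encodes the macrophage growth factor M-CSF (0.32), and Chst15, a sulphotransferase (0.35).

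Il2ra encodes CD25, the alpha chain that raises the affinity of the IL-2 receptor. Its brightest probe read -6.71, -6.52 and -7.47 log2 units on the EBF1ΔC arrays, -5.58, -5.25 and -6.27 on the EBF1wt arrays and -0.39, -0.07 and -0.26 on the Mock arrays. In intensity units this was 2.83 to 4.50 in EBF1ΔC, 6.57 to 12.4 in EBF1wt and 320.0 to 421.4 in Mock. The probe was well above background on 0 EBF1ΔC arrays, 1 EBF1wt array and 3 Mock arrays. Il2ra was at least 38.1-fold lower in EBF1ΔC than in Mock (adjusted p = 9.24e-07), where the bound takes EBF1ΔC no lower than the dimmest signal well above background on each array. In EBF1wt it was lower than in Mock (adjusted p = 2.34e-06), and since 1 of 3 EBF1wt arrays measured it, the fitted difference of -5.46 is not given as a fold. With normexp and quantile normalization the differences from Mock were -2.69 in EBF1ΔC and -2.54 in EBF1wt, and in the authors' values they were -2.52 in EBF1ΔC and -2.38 in EBF1wt. All 4 were called, at smaller sizes.

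Between EBF1ΔC and EBF1wt the Il2ra difference was called (-1.20, adjusted p = 0.0425), but both groups were near background and no fold is given. The call was lost in 15 of 19 alternatives, and over all 19 the adjusted p ran from 0.0223 to 0.401. The same probe missed the threshold when every probe was tested on its own (adjusted p = 0.0583). Within slides 4 and 5 the EBF1ΔC array was lower by 2.22 and 0.43 log2 units. A second Il2ra probe, A_52_P277016, was at least 15.8-fold lower in EBF1ΔC and at least 13.8-fold lower in EBF1wt than in Mock. The third, A_52_P243438, was at least 3.49-fold lower in EBF1ΔC and at least 3.06-fold lower in EBF1wt than in Mock. The remaining one, A_52_P330424, was above background on no array. T and NK cells also use CD25. The summed level of 9 T and NK markers ranged from 0.149 to 0.245 in EBF1ΔC and from 0.147 to 0.169 in EBF1wt. In Mock it ranged from 0.389 to 0.451, and Cd4, Cd8a and Ncr1 were above background on no array. Of the 3 tested markers, Cd3d and Nkg7 were called lower than in Mock in both EBF1 groups. Nkg7 was at least 2.45-fold lower in EBF1ΔC and at least 2.21-fold lower in EBF1wt. Cd3d differed by -3.49 in EBF1ΔC, with 1 array above background, and was at least 6.87-fold lower in EBF1wt. Cd3e was not called in either (-0.40 in EBF1ΔC and -0.22 in EBF1wt). The part of the T and NK markers in the Il2ra result was not tested.

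**Figure D3:**
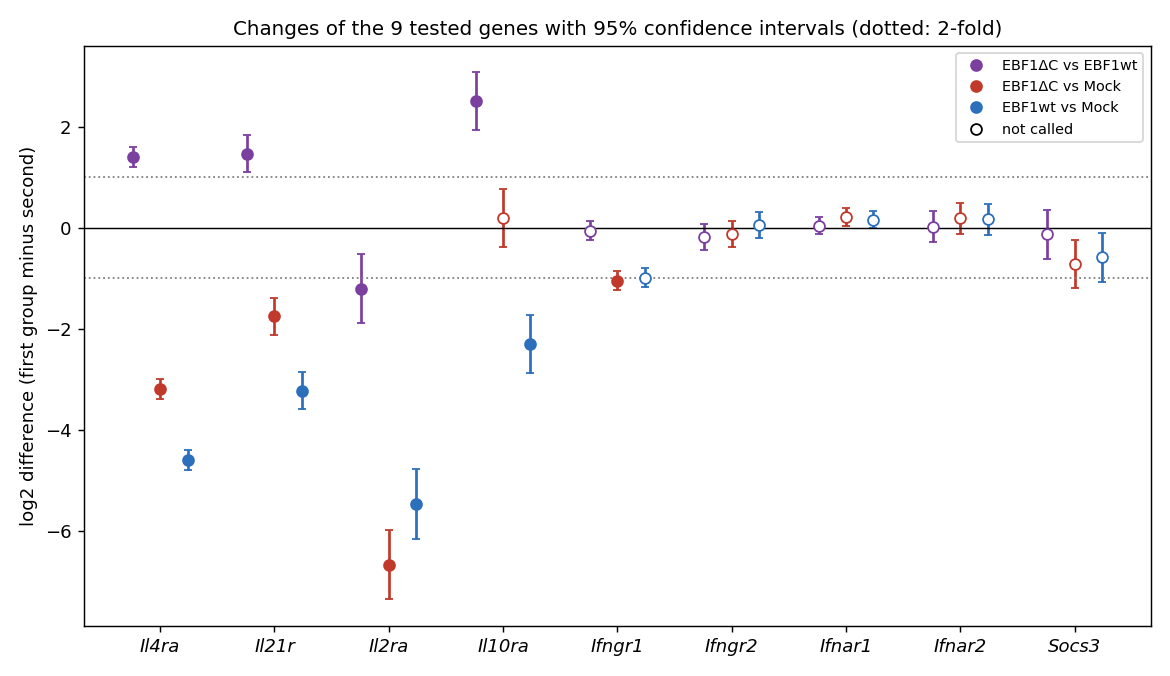
Log2 differences of the 9 tested genes with 95% confidence intervals, in EBF1ΔC against EBF1wt, EBF1ΔC against Mock and EBF1wt against Mock. Filled points were called and dotted lines mark 2-fold. Il4ra, Il21r and Il10ra lie above 2-fold in EBF1ΔC against EBF1wt, while Il2ra in that comparison rests on signals near background.

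Il6ra encodes the IL-6-binding chain. Neither of its 2 probes was well above background on any array, and their intensities ran from 3.28 to 13.1 units, so no level or difference is given.

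Ifngr1 encodes the ligand-binding chain for interferon gamma. It read 3.49, 3.58 and 3.42 log2 units on the EBF1ΔC arrays, 3.57, 3.50 and 3.61 on the EBF1wt arrays and 4.53, 4.45 and 4.66 on the Mock arrays. Both EBF1 groups lay below Mock and overlapped each other. Ifngr1 was 2.07-fold lower in EBF1ΔC than in Mock (-1.05, SE 0.08, adjusted p = 1.70e-05). In EBF1wt it was 1.98-fold lower than in Mock (-0.99, adjusted p = 2.11e-05), just short of the fold required. The difference between EBF1ΔC and EBF1wt was -0.06 (95% confidence interval -0.25 to 0.13, adjusted p = 0.692). The call in EBF1ΔC was lost without Mock replicate 3 (-0.99) and with scaling to the median, and that in EBF1wt was gained in 5 of 19 alternatives. The genes most like Ifngr1 were Gabbr2 (0.068 log2 units), a GABA-B receptor subunit, Pla2g15 (0.078), a lysosomal phospholipase, and Trmt13 (0.080), a tRNA methyltransferase.

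Ifngr2 encodes the second, signalling chain of that receptor, and its 2 probes moved alike. The brighter probe read 2.48, 2.14 and 2.25 log2 units on the EBF1ΔC arrays, 2.61, 2.48 and 2.36 on the EBF1wt arrays and 2.41, 2.31 and 2.53 on the Mock arrays. All 3 groups overlapped. The differences were -0.19 between EBF1ΔC and EBF1wt (95% confidence interval -0.45 to 0.07), -0.13 between EBF1ΔC and Mock (-0.38 to 0.13) and 0.06 between EBF1wt and Mock (-0.19 to 0.32). The other probe differed by -0.17, -0.13 and 0.03 in the same comparisons. It is shown because its 60 bases span chr16:91561992-91563144 (+) on mm9, a stretch longer than the probe.
Ifngr2 probe: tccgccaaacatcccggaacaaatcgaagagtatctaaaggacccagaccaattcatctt

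Ifnar1 encodes the signalling chain of the type I interferon receptor, to which TYK2 binds. It read 0.26, 0.09 and 0.11 log2 units on the EBF1ΔC arrays, 0.11, 0.06 and 0.15 on the EBF1wt arrays and 0.00, -0.04 and -0.13 on the Mock arrays. The EBF1 groups overlapped each other and lay above Mock. The differences were 0.04 between EBF1ΔC and EBF1wt (95% confidence interval -0.13 to 0.22), 0.21 between EBF1ΔC and Mock (adjusted p = 0.0410) and 0.16 between EBF1wt and Mock (adjusted p = 0.0894), all under 2-fold. At any size, 64.1% of all genes had an adjusted p under 0.05 in EBF1ΔC against Mock and 66.4% in EBF1wt against Mock.

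Ifnar2 encodes the ligand-binding chain of the same receptor and is known to give transmembrane and soluble forms in mice. Its brighter probe read 1.84, 1.55 and 1.78 log2 units on the EBF1ΔC arrays, 1.65, 1.95 and 1.50 on the EBF1wt arrays and 1.66, 1.55 and 1.40 on the Mock arrays. All groups overlapped, with differences of 0.02, 0.19 and 0.16 for EBF1ΔC against EBF1wt, EBF1ΔC against Mock and EBF1wt against Mock. The other probe read 1.11, 1.03 and 0.99 on the EBF1ΔC arrays, 0.82, 0.69 and 0.85 on the EBF1wt arrays and 1.29, 1.31 and 1.43 on the Mock arrays. There the groups did not overlap, with differences of 0.25 (adjusted p = 0.121), -0.30 (adjusted p = 0.0112) and -0.55 (adjusted p = 4.63e-04), none of 2-fold. The probes lie apart, at chr16:91394044-91394103 for the brighter and chr16:91405479-91405538 for the other (both + on mm9), and the files do not annotate exons. The brighter one, which stood for the gene, is shown.
Ifnar2 probe: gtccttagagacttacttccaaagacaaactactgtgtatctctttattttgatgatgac

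**Figure D4:**
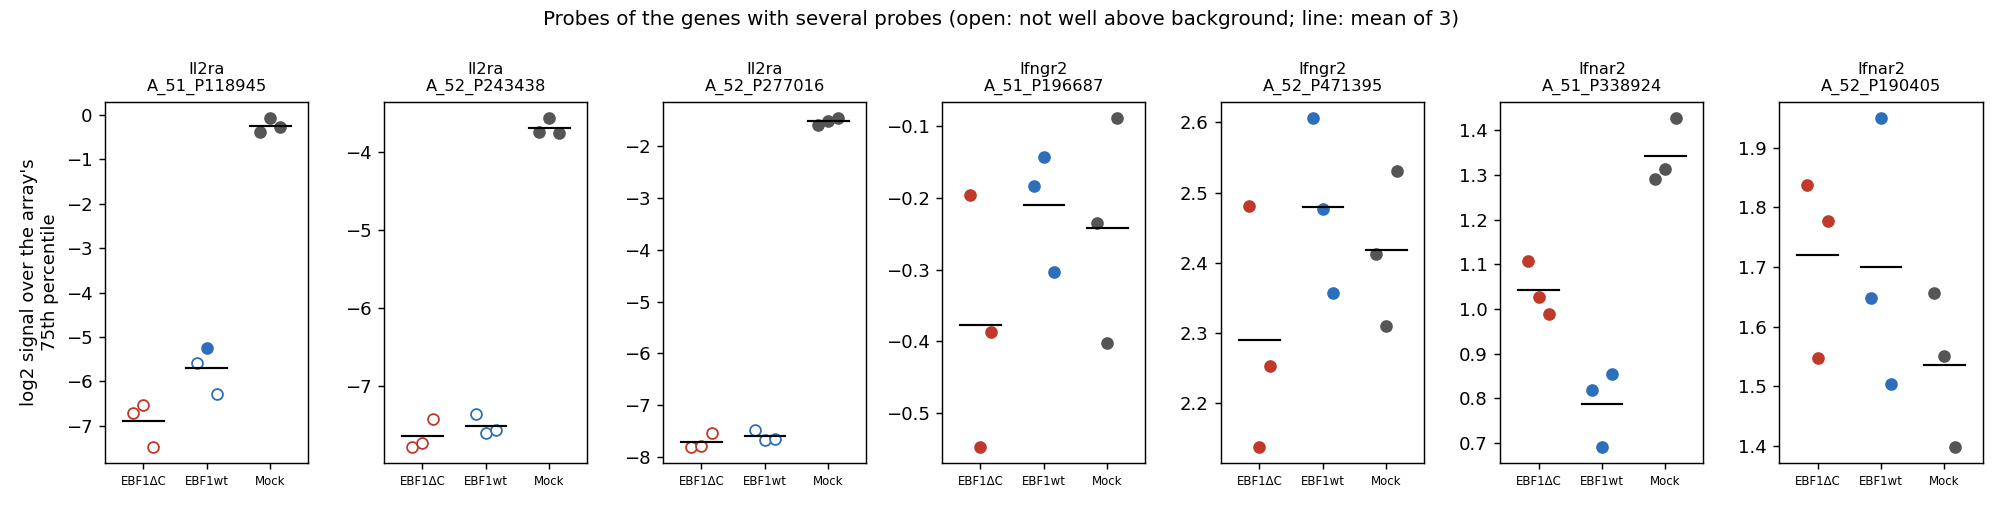
Log2 signal over the 75th percentile of the array for each kept probe of the genes with several probes, with 1 point per array, EBF1ΔC left, EBF1wt in the middle and Mock right. Open points are not well above background, and the line is the mean of 3 arrays. The Il2ra probes are high in Mock, the Ifngr2 probes overlap between groups, and the Ifnar2 probes differ in that A_51_P338924 is highest in Mock.

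Socs3 encodes an inhibitor of gp130 and related receptors, and is itself induced by STAT3. It read 3.85, 4.05 and 3.53 log2 units on the EBF1ΔC arrays, 3.68, 4.41 and 3.73 on the EBF1wt arrays and 4.62, 4.36 and 4.60 on the Mock arrays. EBF1ΔC lay below Mock without overlap, and EBF1wt replicate 2 reached into the Mock range. The differences were -0.13 between EBF1ΔC and EBF1wt (95% confidence interval -0.61 to 0.35, adjusted p = 0.748), -0.72 between EBF1ΔC and Mock (adjusted p = 0.0157) and -0.59 between EBF1wt and Mock (adjusted p = 0.0346), none of 2-fold. Without EBF1wt replicate 2 the EBF1wt difference from Mock was -0.82 (adjusted p = 0.00245). Within slides 4 and 5, EBF1ΔC minus EBF1wt was -0.88 and 0.12. A further probe described as Socs3 in the files, A_52_P431770, carries another gene name there and has coordinates on the opposite strand. Named after its values were seen, it differed by 0.14, -0.11 and -0.25 for EBF1ΔC against EBF1wt, EBF1ΔC against Mock and EBF1wt against Mock.

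Scaling to the array median in place of the 75th percentile moved the median of all genes to -0.16 in EBF1ΔC against EBF1wt, 0.65 in EBF1ΔC against Mock and 0.83 in EBF1wt against Mock. Relative to that median, the differences from Mock in EBF1ΔC and EBF1wt were -0.23 and -0.06 for Ifngr2, 0.10 and 0.04 for Ifnar1, and 0.08 and 0.04 for Ifnar2. They were -1.15 and -1.11 for Ifngr1 and -0.82 and -0.71 for Socs3. Both scalings subtract 1 constant per array, so such relative values are the same under either by construction. Without that reference the values moved with the scaling: under median scaling the differences from Mock in EBF1ΔC and EBF1wt were 0.42 and 0.77 for Ifngr2, 0.75 and 0.87 for Ifnar1, 0.73 and 0.87 for Ifnar2, -0.50 and -0.28 for Ifngr1, and -0.17 and 0.12 for Socs3.

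Of the partner chains, 4 of 6 were tested and 0 were called between EBF1ΔC and EBF1wt, with a median difference of -0.12. Il6st, which encodes gp130, was lower in EBF1ΔC (-1.08, adjusted p = 1.75e-04) and in EBF1wt (-1.19, adjusted p = 9.73e-05) than in Mock, and was the 1 partner called in each. Il2rg, the common gamma chain, differed by -0.97 in EBF1ΔC and -0.98 in EBF1wt from Mock, short of 2-fold. Of 10 ligand genes only Il15 was tested, and it was lower in EBF1ΔC (-1.13) and in EBF1wt (-1.31) than in Mock.

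Of the 4 JAK kinases, 0 were called in any comparison, and Jak3, the kinase bound to the common gamma chain, differed by -0.97 in EBF1ΔC and -0.94 in EBF1wt from Mock. Jak2, which serves the interferon gamma receptor, differed by 0.59 in EBF1ΔC (adjusted p = 5.50e-04) and 0.48 in EBF1wt (adjusted p = 0.00162) from Mock, short of 2-fold. Of 7 STAT factors, 0 were called between EBF1ΔC and EBF1wt, where Stat2 differed by 0.55 (adjusted p = 0.0388). Stat3 was lower in EBF1ΔC (-1.06) and in EBF1wt (-1.19) than in Mock, and Stat2 was lower in EBF1wt than in Mock (-1.47), so 1 was called in EBF1ΔC and 2 in EBF1wt.

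Of 17 feedback inhibitors and phosphatases, 2 were higher and 0 lower in EBF1ΔC than in EBF1wt: Usp18, which limits type I interferon signalling (1.25, adjusted p = 0.0154), and Socs5 (1.05, adjusted p = 0.0312). Over all tested genes, 1.41% were called higher there. Both genes were dim in EBF1wt, with mean log2 signals of -4.77 for Usp18 and -4.73 for Socs5. The lowest signals well above background on the EBF1wt arrays were -5.38 to -5.20, so the sizes of these 2 differences are uncertain. Against Mock, 2 of the 17 were lower in EBF1ΔC, Socs1 (-1.63) and the phosphatase gene Ptpn6 (-1.20), and 0 were higher. In EBF1wt 3 were lower than in Mock, Socs1 (-1.86), Usp18 (-1.42) and Ptpn6 (-1.15), and 0 were higher.

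Of 8 genes known to respond to IL-4 and STAT6, 6 were tested and all 6 were lower in EBF1ΔC and in EBF1wt than in Mock. The median difference was -4.28 in EBF1ΔC and -5.69 in EBF1wt, or -5.22 in EBF1wt with Fcer2a at its bound. By the same kind of bound as for Il2ra, Fcer2a, which encodes CD23, was at least 62.0-fold lower in EBF1ΔC than in Mock. In EBF1wt it was at least 54.4-fold lower than in Mock by that bound. Ciita, the MHC class II transactivator, differed from Mock by -4.52 in EBF1ΔC and -6.77 in EBF1wt. It was higher in EBF1ΔC than in EBF1wt by 2.24 (adjusted p = 2.17e-04), as was the class II gene H2-Aa by 2.68 (adjusted p = 1.08e-04), and these were the 2 called of 6 there.

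Of 6 genes known to respond to IL-6, IL-10 and STAT3, 5 were tested. Bcl3 was higher in EBF1ΔC than in EBF1wt (1.30, adjusted p = 0.00208) and was the 1 called there. Against Mock, Bcl3 was lower in EBF1ΔC (-4.04) and in EBF1wt (-5.34), whereas the transcription factor gene Cebpb was higher in EBF1ΔC (4.54) and in EBF1wt (3.57), so that 1 rose and 1 fell in each. Cebpb was well above background on 1 of 3 Mock arrays, so the size of its difference is uncertain.

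Of 16 interferon response genes, 12 were tested, with a median difference of 0.47 between EBF1ΔC and EBF1wt. There, 1 was called, Gbp2, a guanylate-binding GTPase (1.24, adjusted p = 0.0146). At any size, 6 of the 12 had an adjusted p under 0.05 and all 6 were higher in EBF1ΔC, where 4.20% of all genes were higher by that rule. Among them, Irf7 differed by 0.93 and Irf1 by 0.73. Against Mock, 1 was lower in EBF1ΔC, Oasl2 (-2.32), and 3 were lower in EBF1wt, Oasl2 (-2.74), Irf7 (-1.67) and Gbp2 (-1.28). Oasl2 was well above background on 2 of 3 EBF1ΔC arrays and 1 of 3 EBF1wt arrays.

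**Figure D5:**
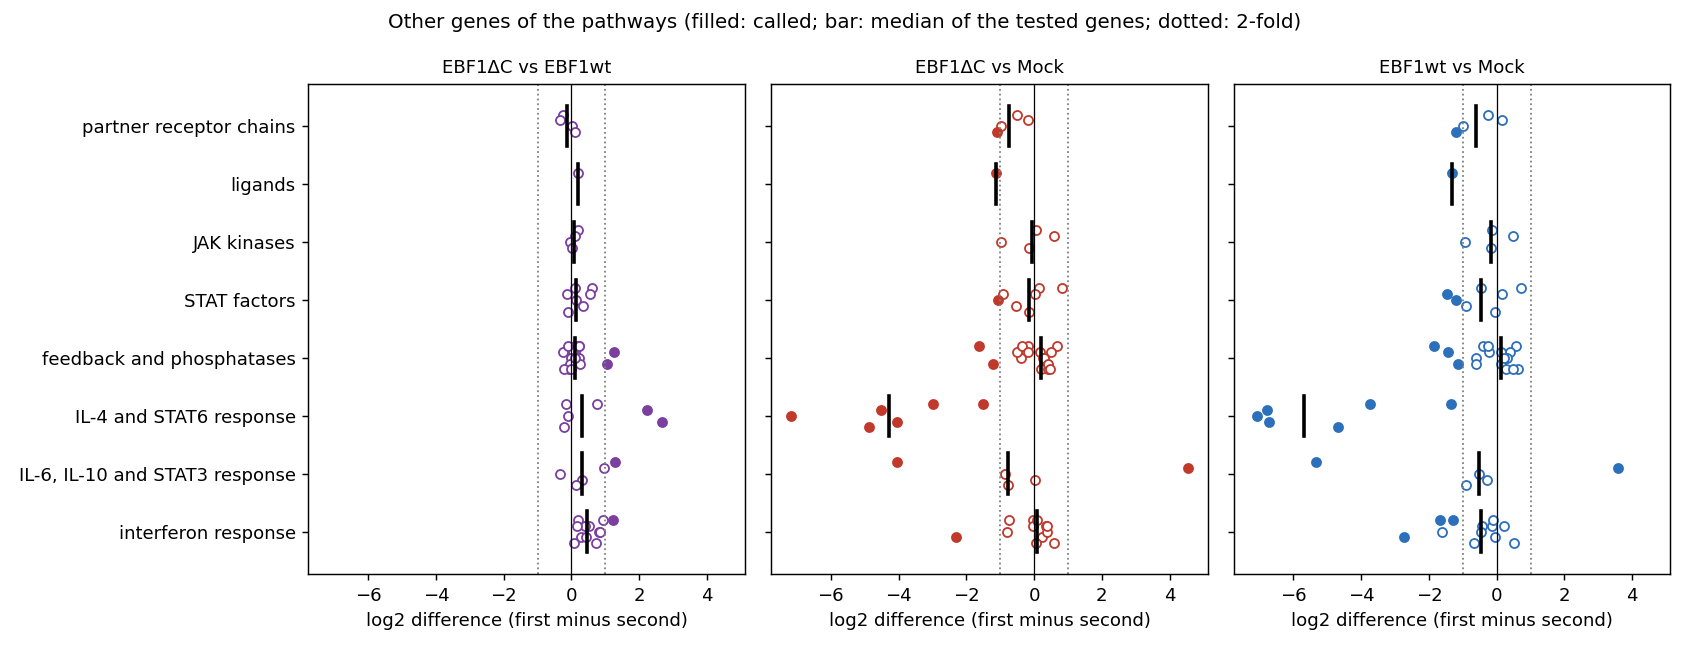
Log2 differences of the tested genes of 8 pathway lists, 1 point per gene, in EBF1ΔC against EBF1wt (left), EBF1ΔC against Mock (middle) and EBF1wt against Mock (right). Filled points were called, bars are list medians and dotted lines mark 2-fold. The 6 tested IL-4 response genes were lower by more than 2-fold in both comparisons with Mock.

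The Mock arrays also differed in marker sums of pro-B and other cell types, whose part in the differences from Mock was not tested. The summed level of the 8 pro-B markers ranged from 677.6 to 731.5 multiples of the 75th percentile in EBF1ΔC, from 724 to 770.5 in EBF1wt and from 158.2 to 162.3 in Mock. Bright markers weigh most in this sum: Vpreb1 had a mean log2 signal of 8.71 in EBF1ΔC, 8.62 in EBF1wt and 5.12 in Mock. Of the 8, 4 were called higher in EBF1ΔC and 6 in EBF1wt than in Mock, and 0 lower. Pax5 differed from Mock by 0.08 in EBF1ΔC and 0.25 in EBF1wt and was not called. The summed level of the 5 erythroid markers ranged from 2.39 to 5.30 in EBF1ΔC, from 3.28 to 5.44 in EBF1wt and from 344.9 to 405.9 in Mock, with Alas2 above background on no array. That of the 3 plasma cell markers ranged from 0.508 to 0.684 in EBF1ΔC, from 0.734 to 0.767 in EBF1wt and from 6.84 to 7.37 in Mock, with Prdm1 above background on no array. Of the 2 tested plasma cell markers, Jchain was lower than in Mock in EBF1ΔC (-7.05) and in EBF1wt (-5.76), and Sdc1 was higher (1.15 and 1.45).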

How the data were processed

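RNA of 9 samples was labelled with Cy3 and hybridised to 1-colour Agilent mouse arrays, and groups were taken from the sample titles. The values used are the deposited processed spot intensity of Agilent Feature Extraction, which is background-subtracted and detrended per the file headers; these name version 10.5.1.1 and the submitters' processing notes version 9.1. The authors also deposited log2 values with scale, centring and normalization unstated. Their columns had medians of 6.74 and correlated at 0.996 to 0.997 across probes with quantile-normalized log2 signal plus 50, and they served as an alternative. Mean and local background intensity from the deposited files served for the normexp alternative.

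From log2 processed signal, the 75th percentile of its own array was subtracted, control spots and outlier spots (73 to 163 per array) were left out, and spots of a probe were averaged. Kept were 22357 of 41174 probes, those well above background throughout at least 1 group of 3 arrays, of which 13 of 16 belonged to the 10 genes; no spot of these was saturated. Probes were named by accession (27479), symbol (5478), synonym (679) or the file's own name (867) through RefSeq, and 6671 stayed unnamed. A gene was represented by its probe of highest mean. Group means of all 9 arrays were fitted together with limma 3.58.1 under R 4.3.3 (with data.table version 1.17.8 and statmod 1.5.0), by two-sided moderated tests with 6 residual degrees of freedom. The procedure was tested on simulated data. A bound on a fold raises a group with no array above background to the lowest signal well above background on each array. That lowest signal is taken over all probes, and a given probe can need more signal to be detected. The bounds therefore hold under this rule only.

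All 10 genes are named. Of the other lists, up to 4 called genes are named by size, or 2 as values in lists without a call; Stat2, Il2rg, Irf1, and Irf7 in EBF1ΔC against EBF1wt, were added after their values were seen. The genes, lists and alternatives were chosen with earlier results of these data known. Tamoxifen is missing from the source name of EBF1wt replicate 3 but stands in its description, and 1 label note says transfected where others say transduced; all arrays were kept in their groups. Alternatives were normexp with quantile normalization, quantile normalization, median scaling, the authors' values, other filters, the mean of probes, only the groups compared, slide or replicate blocks, and leaving out each array.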

Additional observations from a re-analysis of the deposited data

How the results depend on the processing

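No member changed the direction of a called difference in any alternative, and Il10ra was called between EBF1ΔC and EBF1wt in all 20. Of the 10 genes, 1 was called between EBF1ΔC and EBF1wt, Il10ra, with normexp and quantile normalization and also with the authors' values. For EBF1ΔC against EBF1wt, 327 calls became 128 with normexp, 125 with the authors' values, 216 with probes above background on all 9 arrays, 208 with only the 2 groups fitted and 145 with slide as a fixed block. For EBF1ΔC against Mock, 2111 calls became 1036, 1012 and 1398 with the first 3 of these and 3872 with median scaling (3061 higher and 811 lower, beside 747 and 1364). For EBF1wt against Mock, 2273 calls became 1026, 1008 and 1472, and 5325 with median scaling (4571 higher and 754 lower, beside 788 and 1485). The cause was not tested. Leaving out each array gave 3 to 4 members and 245 to 361 genes between EBF1ΔC and EBF1wt, 3 to 4 members and 1966 to 2167 genes in EBF1ΔC against Mock, and 4 to 5 members and 2106 to 2300 genes in EBF1wt against Mock.

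Same-numbered replicates shared only a number, with correlations of their deviations from -0.18 to 0.11. With the replicate block, 4 members and 284 genes were called between EBF1ΔC and EBF1wt, 4 and 2095 in EBF1ΔC against Mock, and 4 and 2270 in EBF1wt against Mock. Signal over background limits Il2ra and Il6ra.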
